A study of Mus musculus with 2 samples.

Results

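The Wnt ligands, their receptors and their antagonists were examined in cultured mouse thymic stroma. The members are the probes named for a Wnt, Frizzled (Fzd), secreted Frizzled-related (Sfrp), Dickkopf (Dkk) or R-spondin (Rspo) gene, together with those for Frzb, Wif1, Lrp5, Lrp6, Axin2, Lef1, Tcf7, Tcf7l2, Kremen1, Kremen2, Ror2 and Sost. They comprise 77 of the 41174 probes on the array and stand for 53 of 19505 genes named there. Thymic lobes of C57BL/6 fetuses were kept in organ culture with 1.35 mM deoxyguanosine, which removes T-lineage cells, and were dispersed with trypsin. The dispersed stromal cells then spent 72 h either reaggregated on a membrane (reaggregation thymus organ culture, RTOC) or plated flat on a dish (2D culture). RNA of 2D culture (Cy3) and of RTOC (Cy5) was hybridized together on each of 2 arrays, one of E14.5 cells after 8 days of organ culture and the other of E15.5 cells after 9 days. Both cultures of both stages thus share the strain, the deoxyguanosine and the organ culture. The stroma was a mixture of cell types that had not been sorted. The stage, the days in organ culture and the array changed together and cannot be told apart, and the ratio of RTOC over 2D culture was taken as measured in 2 replicates, the arrays. The dyes were not swapped between the arrays, so that dye and culture cannot be told apart either.

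Wnt proteins are secreted lipid-modified ligands that bind Frizzled receptors on the surface of cells. With the co-receptors Lrp5 or Lrp6 they stabilize β-catenin, which acts on genes through the DNA-binding proteins Tcf7, Lef1 and Tcf7l2, while some Wnts act through Ror2 and other routes that do not use β-catenin. Secreted Frizzled-related proteins and Frzb bind Wnts outside the cell. Some Dickkopf proteins bind Lrp5 and Lrp6 together with Kremen proteins, and R-spondins raise the number of Frizzled receptors at the membrane. In the thymus, Wnt signals from epithelial cells and from other cells are known to act on Foxn1, the transcription factor on which thymic epithelial development depends.

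Between 53.1% and 60.9% of all probes were well above background in a channel, which for the members left 46 of 77 probes, from 36 genes, to be tested. Of these, 35 probes were well above background in all 4 channels. Signals are given on the log2 scale after quantile normalization, and a ratio is the log2 difference of RTOC minus 2D culture on the same array. A probe was called where the adjusted p from limma was under 0.05 over all 23685 probes tested. The remaining 17 genes, which were not above background in either culture on at least 1 array, were Dkk1, Dkk4, Rspo2, Rspo3, Rspo4, Sfrp4, Sfrp5, Wif1, Wnt1, Wnt2b, Wnt3, Wnt3a, Wnt8a, Wnt8b, Wnt9b, Wnt10b and Wnt16. Dkk1, Wif1 and Wnt3a, much used in studies of this pathway, were not well above background in any channel.

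Of the 46 probes, 12 were lower and 7 were higher in RTOC, which is 26.1% and 15.2% of them. Over all probes tested, 13.6% were called lower and 15.2% were called higher. Counted by gene, with the brightest tested probe of each, 9 of the 36 genes were lower and 6 were higher, against 12.7% called lower and 15.4% called higher among 13506 genes. The median ratio of the 46 probes was -0.26, and that of all probes tested was -0.0071. The direction differed by role. Of 10 Wnt ligands tested, 7 were lower and 1 was higher, while of 10 antagonist probes 2 were lower and 3 were higher. Of 17 receptor probes, 1 was lower and 2 were higher. These shares describe a small set of probes and were not tested as a set.

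**Figure D1:**
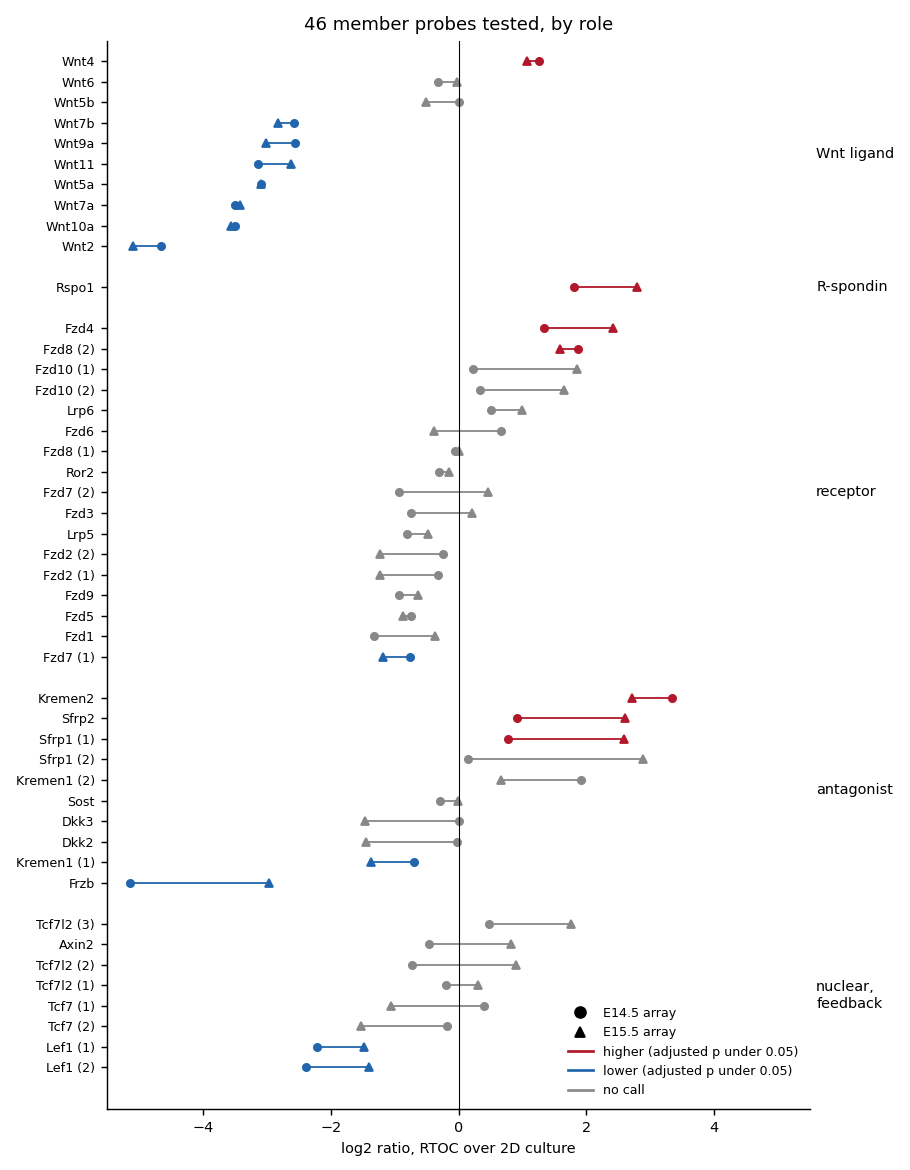
Log2 ratio of RTOC over 2D culture (x axis) of each of the 46 member probes tested, grouped by role, with the E14.5 array as a circle and the E15.5 array as a triangle joined by a line. Red and blue mark probes with an adjusted p under 0.05, and a number in brackets separates probes of the same gene. The 7 blue ligands lie between -2.56 and -5.10 on both arrays, while 14 of the 17 receptor probes are grey.

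Of the ligands, 7 fell, and in 2 of them RTOC gave no signal well above background. Wnt2, known from mesenchyme of many developing organs, had signals of 10.82 (E14.5) and 9.81 (E15.5) in 2D culture and of 6.16 and 4.71 in RTOC. It was well above background on neither array in RTOC, so that it was at least 3.26-fold lower there (measured ratios -4.66 and -5.10, adjusted p = 0.00161). Wnt5a, a ligand mostly of β-catenin-independent signalling, had signals of 8.19 and 8.48 in 2D culture and of 5.10 and 5.38 in RTOC. It too was not well above background in RTOC, where it was at least 1.46-fold lower (ratios -3.09 and -3.10, adjusted p = 0.00209). The RTOC signals of both genes lay near background and are not measured levels. In RNA of a mixed culture, fewer cells that make a transcript and less of it per cell cannot be told apart, here and for each gene below.

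The other 5 ligands that fell were measured in both cultures on both arrays. Wnt10a and Wnt7a, which are known from epithelia, fell to a similar degree. Wnt10a had signals of 10.91 and 9.45 in 2D culture against 7.42 and 5.88 in RTOC, which was 11.6-fold lower (mean ratio -3.53 with an SE of 0.25, n = 2 arrays, adjusted p = 0.0017). Wnt7a went from 10.69 and 9.64 to 7.19 and 6.22, which was 11.0-fold lower (-3.46, SE 0.25, adjusted p = 0.00174). The ratios of the arrays were within 0.08 of each other for both genes. With another background correction and normalization (normexp and loess) the mean ratios were smaller, -1.52 for Wnt10a and -1.35 for Wnt7a. Wnt11, a ligand of cell movement in the embryo, went from 10.93 and 10.51 to 7.78 and 7.89, which was 7.38-fold lower (-2.88, SE 0.27, adjusted p = 0.00262). Wnt9a, known from skeletal and joint development, went from 11.35 and 12.52 to 8.79 and 9.49, which was 6.93-fold lower (-2.79, SE 0.27, adjusted p = 0.0027). Wnt7b, an epithelial ligand of the lung and kidney, went from 11.02 and 11.26 to 8.43 on each array, which was 6.54-fold lower (-2.71, SE 0.26, adjusted p = 0.00261). In each of these 5 genes, both 2D signals lay above both RTOC signals. The genes were picked here by their calls, and how often this holds over all probes was not counted.

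Wnt4, a ligand that thymic epithelium is known to make, was the single ligand called higher in RTOC. Its signals were 10.32 (E14.5) and 11.10 (E15.5) in 2D culture and 11.57 and 12.17 in RTOC. It was 2.24-fold higher (ratios 1.25 and 1.07, SE 0.25, adjusted p = 0.0245). Wnt5b and Wnt6 were measured on both arrays and were not called. Wnt5b had ratios of 0.0051 and -0.51 (adjusted p = 0.519) and Wnt6 of -0.32 and -0.027 (adjusted p = 0.64).

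**Figure D2:**
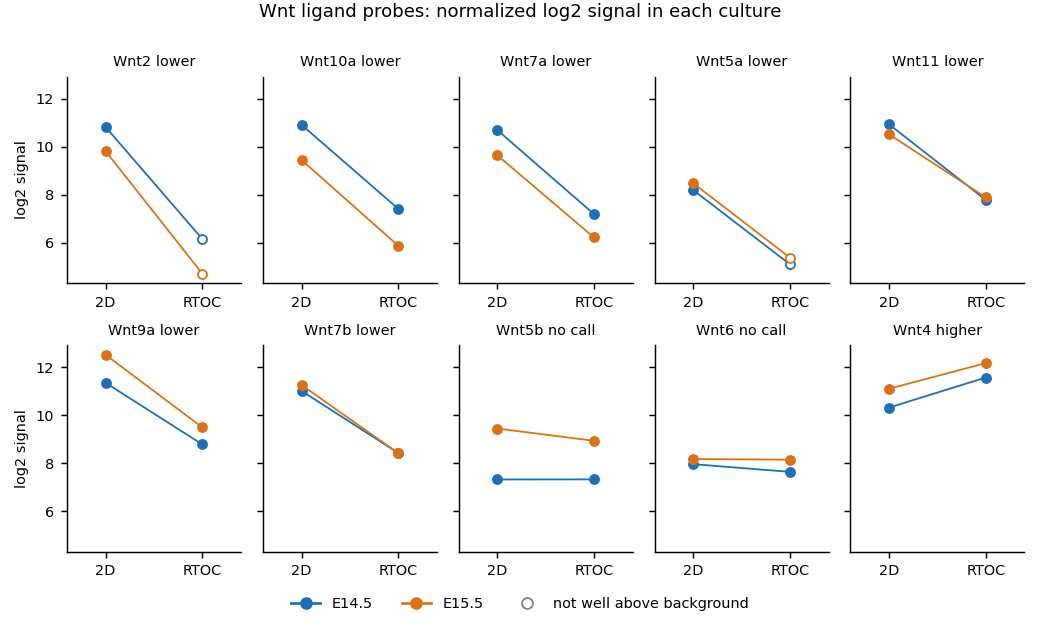
Normalized log2 signal (y axis) of the 10 Wnt ligand probes tested, in 2D culture and in RTOC (x axis), with 1 line per array and open circles where the probe was not well above background. In the 7 panels of lower ligands both lines fall by 2.56 or more. The 2 open RTOC points in the panel of Wnt2, and the 2 in that of Wnt5a, show where a fold is a lower bound.

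Several Wnt genes lie next to each other in the mouse genome. In the assembly GRCm38.p6, Wnt6 (chr1:74754342-74785322) and Wnt10a (chr1:74792019-74804176) are 6696 bases apart with no other gene wholly between them. Of this pair, Wnt10a fell by 3.53 while the mean ratio of Wnt6 was -0.17. Wnt3a (chr11:59248036-59290751) and Wnt9a (chr11:59306849-59333552) are 16097 bases apart, and of these Wnt9a fell while Wnt3a was not above background. The signals of neighbours come from different probes, and their levels were not compared.

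Of the R-spondins, Rspo1 was measured and was higher in RTOC. Its signals were 7.13 (E14.5) and 6.65 (E15.5) in 2D culture and 8.95 and 9.44 in RTOC, with ratios of 1.81 and 2.79. The mean was 2.30 (SE 0.32, adjusted p = 0.00702). In 2D culture Rspo1 was well above background on the E14.5 array and not on the E15.5 array, and no fold is given. Rspo2, Rspo3 and Rspo4 were not well above background with either of their probes in any channel.

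Among the receptors, Fzd4 was higher in RTOC. Fzd4, which is also the receptor of the vascular ligand norrin, had signals of 9.81 (E14.5) and 9.45 (E15.5) in 2D culture and of 11.15 and 11.86 in RTOC. It was 3.68-fold higher (ratios 1.34 and 2.41, SE 0.34, adjusted p = 0.0145). Of 5 endothelial markers, 3 were also called higher in RTOC (Cdh5, Pecam1 and Esam) and none lower. Kdr was not called (ratios 0.026 and 2.84, adjusted p = 0.151), and Tek was not tested (-0.71 and -0.46). Cdh5 was at least 5.01-fold higher and Esam had a mean ratio of 2.41. The summed signal of all 5 was 10.35 (E14.5) and 9.06 (E15.5) in 2D culture and 11.95 and 12.47 in RTOC. Kdr alone had 10.03 and 7.72 in 2D culture. In 2D culture neither Cdh5 nor Pecam1 was well above background, and the part of endothelial cells in the ratio of Fzd4 was not tested.

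The probes of Fzd8 disagreed. In 2D culture Fzd8 (2), which the array design takes from a cDNA clone, was not well above background, and with ratios of 1.86 and 1.59 it was at least 1.23-fold higher in RTOC (adjusted p = 0.008). Fzd8 (1) was above background in all 4 channels and had ratios of -0.054 and -0.0013 (adjusted p = 0.943). The probes of Fzd7 differed as well. Fzd7 (1) had signals of 9.37 and 10.66 in 2D culture and of 8.61 and 9.48 in RTOC, and was 1.96-fold lower (ratios -0.76 and -1.18, SE 0.27, adjusted p = 0.0453). Fzd7 (2) had ratios of -0.93 and 0.46 (adjusted p = 0.672). Only Fzd7 (1) passed the threshold, and its 2D and RTOC signals overlapped between the arrays.

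Fzd7 (1) was also the member probe most like a probe of another member gene. Among 2898 pairs of probes of different member genes, aligned without gaps over at least 30 of their 60 bases, it shared the most with Fzd2 (1), at 42 of 50 aligned bases and with a longest shared run of 14. The next pair, Fzd7 (1) and a probe of Fzd8, shared 33 of 48 bases. The sequences are shown because Frizzled genes are close relatives and a probe may take up the transcript of another, which was not tested. Capitals mark the bases that the aligned probes share.
Fzd2 (1): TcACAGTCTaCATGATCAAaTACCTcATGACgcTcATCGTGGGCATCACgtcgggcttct
Fzd7 (1): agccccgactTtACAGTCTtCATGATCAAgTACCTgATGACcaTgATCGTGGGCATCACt
Fzd2 (1) itself had ratios of -0.33 and -1.23, and Fzd2 (2) of -0.25 and -1.23 (adjusted p = 0.119 and 0.142). The probes of Fzd2 thus lay close to each other on each array.

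The other 12 receptor probes, those of Fzd2 included, were not called. Fzd1 had ratios of -1.33 and -0.38 (adjusted p = 0.101). The probes of Fzd10 were alike, with ratios of 0.23 and 1.86 for the first and of 0.34 and 1.66 for the second (adjusted p = 0.123 and 0.101). Fzd5 had ratios of -0.74 and -0.87 (adjusted p = 0.0635) and Fzd9 of -0.94 and -0.64 (adjusted p = 0.0715). In RTOC on the E14.5 array both were not well above background. Fzd3 had ratios of -0.74 and 0.20, and Fzd6 of 0.67 and -0.38. Of the co-receptors, Lrp5 had ratios of -0.80 and -0.48 (adjusted p = 0.118) and Lrp6 of 0.51 and 0.99 (adjusted p = 0.0902). Ror2, a receptor of Wnt5a, had ratios of -0.30 and -0.15 (adjusted p = 0.537). This Ror2 probe therefore differed little on either array, while Wnt5a was called lower. A second Ror2 probe (ratios -1.11 and -2.12) was not well above background in any channel and was not tested. A further 3 probes carry clone names in the files and are named for Fzd3, Fzd5 and Lrp6 by older symbols of RefSeq, so they were not counted among the members. The Lrp6 probe was higher in RTOC (1.67, adjusted p = 0.00879), as was the Fzd3 probe (1.22, adjusted p = 0.0237), while the Fzd5 probe had a mean ratio of 0.66 (adjusted p = 0.123). For Fzd3 and Fzd5 the sign was opposite to that of the mean of the member probe.

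Antagonists moved in both directions. Frzb, which encodes a secreted protein that binds Wnts, had signals of 9.66 (E14.5) and 6.57 (E15.5) in 2D culture and of 4.50 and 3.59 in RTOC. Not well above background in RTOC, it was at least 1.81-fold lower there (ratios -5.15 and -2.97, adjusted p = 0.00555). The related Sfrp1 and Sfrp2 were higher. Sfrp2 had signals of 9.88 and 7.66 in 2D culture and of 10.79 and 10.27 in RTOC, and was 3.39-fold higher (ratios 0.92 and 2.61, SE 0.44, adjusted p = 0.0354). Sfrp1 (1) had signals of 10.71 and 9.69 in 2D culture and of 11.49 and 12.27 in RTOC, and was 3.21-fold higher (ratios 0.78 and 2.59, SE 0.46, adjusted p = 0.0453). Sfrp1 (2) had ratios of 0.15 and 2.88 and was not called (adjusted p = 0.127). All 3 Sfrp probes had a larger ratio on the E15.5 array, and in each the 2D signal was lower there than at E14.5.

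In 2D culture Kremen2, a receptor of Dickkopf proteins, had signals of 3.93 and 4.00 and was not well above background. In RTOC its signals were 7.27 and 6.71, and it was at least 1.24-fold higher (ratios 3.35 and 2.71, adjusted p = 0.00259). The probes of its relative Kremen1 pointed in opposite directions. Kremen1 (1) had signals of 7.62 and 8.26 in 2D culture and of 6.92 and 6.88 in RTOC, and was 2.05-fold lower (ratios -0.70 and -1.38, SE 0.29, adjusted p = 0.0473). Kremen1 (2) had ratios of 1.92 and 0.66 and just missed the threshold (adjusted p = 0.0502). Each probe had the same sign on both arrays, so no direction can be given for Kremen1 as a gene.

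Dkk2 and Dkk3 differed between the arrays in nearly the same way. Dkk2 had a ratio of -0.026 on the E14.5 array and of -1.46 on the E15.5 array (adjusted p = 0.207). Dkk3 had ratios of -0.00090 and -1.46 (adjusted p = 0.217). Sost, a bone antagonist of Lrp5 and Lrp6, had ratios of -0.29 and -0.0041 (adjusted p = 0.688).

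**Figure D3:**
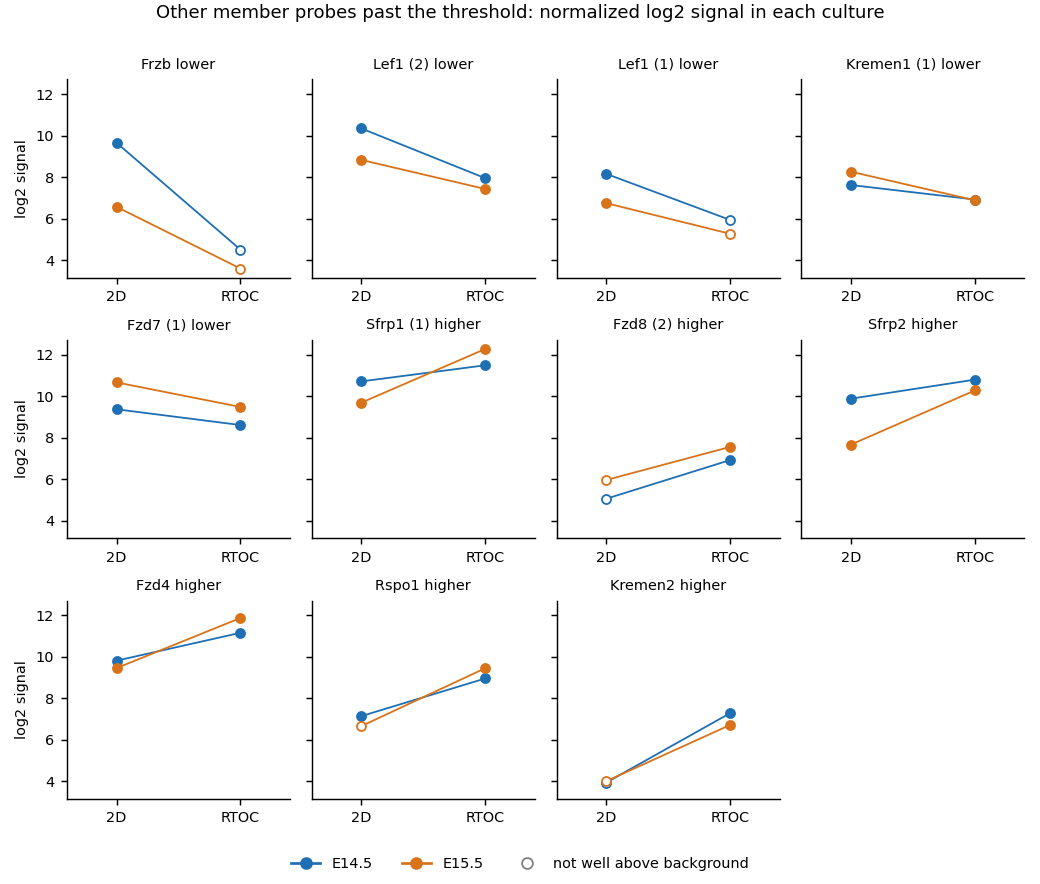
Normalized log2 signal (y axis) in 2D culture and in RTOC (x axis) of the 11 member probes other than ligands with an adjusted p under 0.05, drawn as for the ligands. Frzb drops to 4.50 and 3.59 in RTOC, Kremen2 rises from 3.93 and 4.00 in 2D culture, and the lines of Sfrp1 (1) and Sfrp2 are steeper on the E15.5 array.

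Of the nuclear members, Lef1 fell and the other 3 genes were not called. Lef1 (2) had signals of 10.34 (E14.5) and 8.83 (E15.5) in 2D culture and of 7.95 and 7.43 in RTOC, and was 3.73-fold lower (ratios -2.40 and -1.40, SE 0.33, adjusted p = 0.0128). Lef1 (1), not well above background in RTOC, was at least 1.22-fold lower (ratios -2.22 and -1.48, adjusted p = 0.0101). On each array the Lef1 probes thus gave like ratios. Lef1 also belongs to genes that β-catenin is known to act on, as does Axin2, a feedback inhibitor and much-used readout of β-catenin signalling. Axin2 had signals of 9.54 and 8.02 in 2D culture and of 9.07 and 8.84 in RTOC, with ratios of -0.47 and 0.82 (adjusted p = 0.744). Its sign thus differed between the arrays. Tcf7, a factor best known from T-lineage cells, had ratios of 0.40 and -1.06 with one probe and of -0.18 and -1.53 with the other (adjusted p = 0.569 and 0.146). The tested probes of Tcf7l2 had ratios of -0.20 and 0.30, of -0.73 and 0.90, and of 0.47 and 1.76 (adjusted p = 0.899, 0.891 and 0.0747).

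Promoter windows of RefSeq, read from 250 bases before to 50 bases after a start on GRCm38.p6, were at hand for 36 of the 53 member genes (44 windows). They were searched on both strands for CTTTGA, the core of the site of Tcf and Lef proteins, and for GACGC, the core of the Foxn1 site with a flanking base. A match of CTTTGA can share its last bases with a match of GACGC, which did not happen in the sequences below. CTTTGA was found in 6 of the 36 genes (16.7%) and in 18.2% of all 27025 genes with a window. GACGC was found in 18 of the 36 genes and in 29.6% of all genes. Of the 5 genes called higher with a window none held CTTTGA, and of those called lower with all their tested probes 3 of 6 held it, namely Frzb, Lef1 and Wnt11. Of 12 genes tested and not called, 2 held CTTTGA. The Foxn1 core GACGC was found in 3 of the 5 higher, 4 of the 6 lower and 5 of the 12 uncalled genes. The 250 bases before a start of Frzb, Lef1 and Wnt11 are shown because they hold the motif in members that fell together. CTTTGA or its reverse TCAAAG, and GACGC or its reverse GCGTC, are in capitals.
Frzb, chr2:80447397-80447646, minus strand: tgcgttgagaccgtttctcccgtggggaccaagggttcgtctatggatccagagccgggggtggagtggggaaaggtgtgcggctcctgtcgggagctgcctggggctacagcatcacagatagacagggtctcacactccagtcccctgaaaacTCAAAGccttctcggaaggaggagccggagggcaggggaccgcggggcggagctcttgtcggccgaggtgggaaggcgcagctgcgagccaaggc
Lef1, chr3:131156044-131156293, plus strand: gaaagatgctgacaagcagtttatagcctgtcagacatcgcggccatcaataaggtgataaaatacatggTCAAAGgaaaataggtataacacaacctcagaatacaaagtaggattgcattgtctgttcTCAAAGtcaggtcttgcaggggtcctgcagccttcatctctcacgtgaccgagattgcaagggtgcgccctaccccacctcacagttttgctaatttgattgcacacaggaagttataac
Wnt11, chr7:98834862-98835111, plus strand: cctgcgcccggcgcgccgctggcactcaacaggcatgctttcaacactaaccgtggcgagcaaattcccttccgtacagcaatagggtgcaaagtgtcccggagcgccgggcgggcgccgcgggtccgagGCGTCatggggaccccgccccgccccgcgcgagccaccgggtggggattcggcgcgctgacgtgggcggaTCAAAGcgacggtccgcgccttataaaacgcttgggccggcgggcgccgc
The match begins 95 bases before the start used in Frzb and 50 bases before that used in Wnt11, which also holds GACGC. As annotated, Wnt11 begins at chr7:98835084, so the last bases of its window lie inside the gene. In Lef1 the window belongs to a start inside the gene and holds 2 matches, at 180 and 120 bases. These are matches of letters, and binding was not measured on the arrays.

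The members differed in how far the arrays lay apart. The median gap between the ratios of the arrays was 0.27 for the ligands, 0.91 for the receptors and 1.45 for the antagonists, with 0.40 over all probes tested. The largest gap among the 46 member probes tested was 2.73, in Sfrp1 (2), and the largest among the called members was 2.18, in Frzb. The signs of the arrays were opposite in 8 of the 46 probes (17.4%), and in 19.9% of all probes tested. None of those 8 probes was called, and opposite signs on 2 arrays hardly allow a call.

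**Figure D4:**
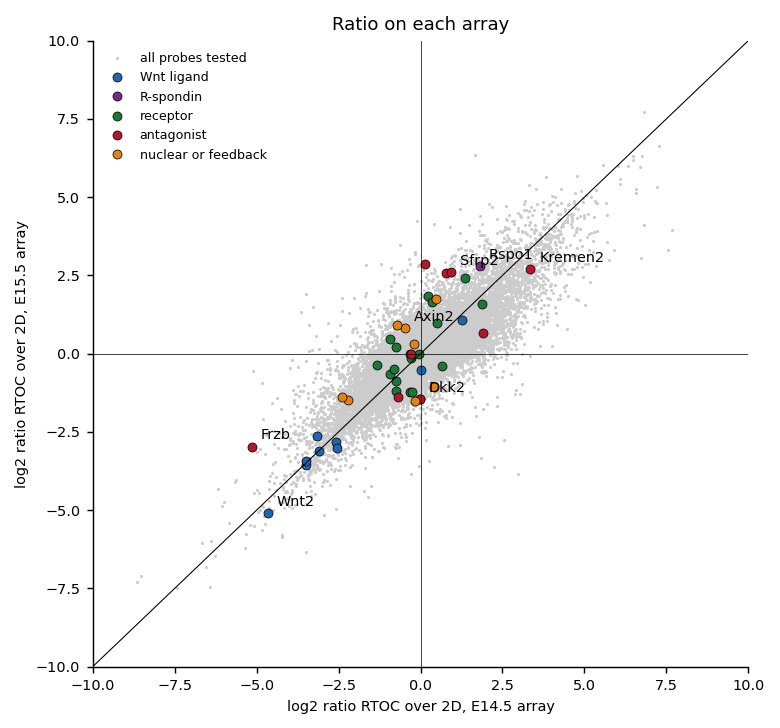
Log2 ratio of RTOC over 2D culture at E14.5 (x axis) and at E15.5 (y axis), with all 23685 probes tested in grey and the 46 member probes coloured by role. The diagonal marks equal ratios, near which the lower ligands lie, while Frzb and Sfrp2 lie away from it.

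Other genes of the pathway were taken from a list of 60, of which 52 were tested with 1 probe each. Of these 7 were higher (13.5%) and 6 were lower, shares near the 15.4% and 12.7% of all genes. The median ratio of the list was -0.20. Dact2, an inhibitor in the cytoplasm, was 10.2-fold higher in RTOC (ratios 3.53 and 3.17, adjusted p = 0.0019). Tnfrsf19, a membrane protein, was 6.31-fold higher (2.19 and 3.12, adjusted p = 0.00442). Rnf43, which removes Frizzled receptors from the membrane, was 2.93-fold higher (1.94 and 1.17, adjusted p = 0.0175). Ccn1, which encodes a matrix protein, fell by 3.92 on average (SE 0.25, adjusted p = 0.00161). So did the cell cycle gene Ccnd1 (-2.62 and -2.99, adjusted p = 0.00256) and Nkd2, an inhibitor of Dishevelled (-3.22 and -2.08, adjusted p = 0.00576). After normexp and loess Nkd2 was no longer called (-1.20, adjusted p = 0.0743). Ctnnb1, the gene of β-catenin, had ratios of 0.80 and 0.73 with its brightest probe (adjusted p = 0.0715). That probe was called after normexp and loess (0.66, adjusted p = 0.0465). Its other probes were not called, with mean ratios of 0.42 (adjusted p = 0.254) and 1.11 (adjusted p = 0.0526). Wls and Lgr4 were picked after their values were seen because of their ties to the members. Wls, needed to release Wnt proteins from the cell, was lower in RTOC with its brightest probe (-0.86 and -1.13, adjusted p = 0.0386), and Lgr4, a receptor of R-spondins, was higher (1.34 and 0.86, adjusted p = 0.0342). A second tested probe of each did not follow, with ratios of 0.91 and -0.21 for Wls (adjusted p = 0.483) and of -0.094 and -0.21 for Lgr4 (adjusted p = 0.674), so no direction can be given for either gene.

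Foxn1 had signals of 8.79 (E14.5) and 9.11 (E15.5) in 2D culture and of 11.47 and 11.74 in RTOC, and was 6.30-fold higher in RTOC (ratios 2.68 and 2.63, adjusted p = 0.00261). All 9 epithelial markers were well above background in every channel. Of these 5 were higher, namely Foxn1 itself, Psmb11, Ly75, Krt5 and Ccl25, the last at 6.96, and 1 was lower, Krt14 at -1.86. The other 3 were not called. These were Krt8 (mean ratio 0.28, adjusted p = 0.624), Krt18 (0.69, adjusted p = 0.122) and Epcam (ratios -0.54 and -0.87, adjusted p = 0.0957). The share of epithelial cells in each culture was not measured. The summed signal of the epithelial markers was 18.13 and 19.17 in 2D culture and 19.89 and 19.88 in RTOC. Of 7 mesenchymal markers 3 were higher and 3 were lower, with summed signals of 18.21 and 17.93 in 2D culture and of 17.82 and 17.90 in RTOC. Of 6 haematopoietic and myeloid markers 4 were higher, with summed signals of 16.03 and 15.77 against 17.34 and 17.72. Of 10 T-lineage markers 2 were higher, Cd3g and Cd3d, and 0 were lower. Not called were Cd3e (mean ratio -0.075), Lck (0.30), Ptcra (0.90, adjusted p = 0.0515) and Il7r (-0.58, adjusted p = 0.14). Rag1 (ratios 2.35 and -0.20), Cd4, Cd8a and Rag2 were not tested. Of these, Cd8a and Rag2 were not well above background in any channel. The summed signal of all 10 T-lineage markers was 10.34 and 10.39 in 2D culture and 11.63 and 10.38 in RTOC. Markers of several cell types thus moved beside the Wnt members, and their part in the ratios of the members was not tested.

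How far a probe fell or rose changed with the processing. With normexp and loess, which replace both the background correction and the quantile normalization, 8.48% of all probes tested were called higher and 7.18% lower. Of the 19 called member probes, 10 kept their call. The 6 lower probes that kept it were all ligands, with mean ratios between -1.35 and -2.07. These were Wnt9a (-2.07), Wnt2 (-1.70), Wnt7b (-1.67), Wnt11 (-1.56), Wnt10a (-1.52) and Wnt7a (-1.35), an order unlike that of the first processing. The 4 higher probes that kept it were Wnt4, Rspo1, Fzd4 and Sfrp2, with mean ratios between 0.80 and 1.44. Wnt5a (-0.56, adjusted p = 0.0615), Frzb (-0.88, adjusted p = 0.137), Lef1 (2) (-0.89, adjusted p = 0.0851), Kremen2 (0.39, adjusted p = 0.109) and Sfrp1 (1) (1.37, adjusted p = 0.0845) kept their sign but were no longer called. The same held for Lef1 (1), Fzd7 (1), Fzd8 (2) and Kremen1 (1). Centring each array on its median gave 12 higher and 10 lower probes, or 54.5% higher of all calls in place of 36.8%. Over all probes it called 21.4% higher, and it moved the median over all probes tested to 0.15.

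**Figure D5:**
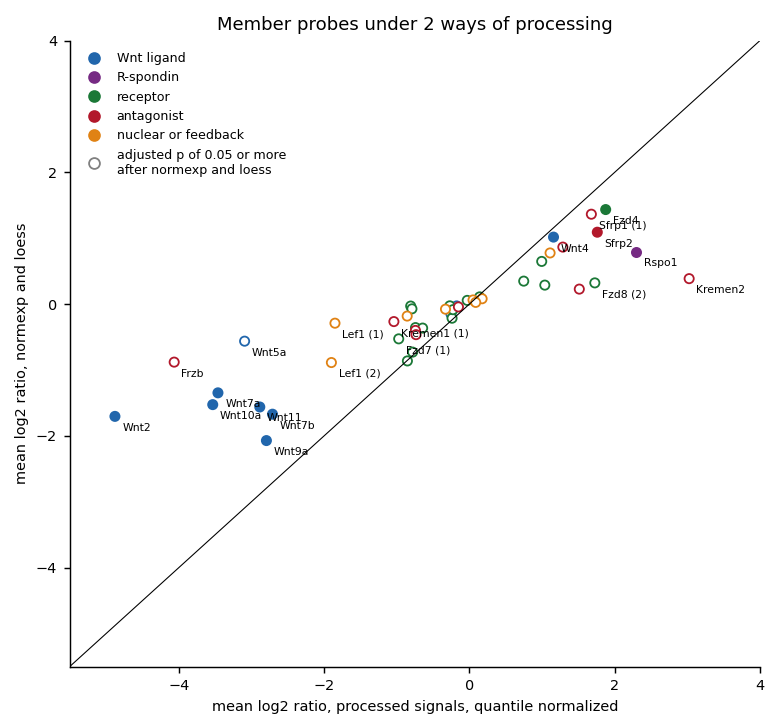
Mean log2 ratio of the 46 member probes after quantile normalization of processed signals (x axis) and after normexp and loess (y axis), coloured by role, with open circles where the adjusted p after normexp and loess was not under 0.05. The mean of Wnt2 goes from -4.88 to -1.70, and the called ligands other than Wnt5a stay filled.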

How the data were processed

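The authors scanned the arrays and ran Feature Extraction. The scanner files they deposited hold each spot's signals as an intensity, and the deposited series table holds the log10 ratio of Cy5 over Cy3 of processed signals. Per the labels the version was 11.5.1.1, while the file headers give 9.1.3.1. The methods state quantile normalization. Here control and outlier spots (5 on the E14.5 array, 1 on the E15.5 array) were left out, the 4 channels of processed signal quantile normalized, and spots of a probe averaged. Tests were run on probes with a channel well above background on each array, where a share of 0.5 or more of a probe's spots carried that flag. Each probe's log2 ratio was set against 0 with limma 3.58.1 in R 4.3.3 (lmFit, eBayes, two-sided, Benjamini-Hochberg over all 23685 probes, threshold 0.05). An SE is that of limma. With 1 residual degree of freedom, p-values lean on the spread that limma pools over probes (prior degrees of freedom 4.5), and an exact test on 2 arrays could not go below 0.5. The fit was tested on simulated ratios drawn from the spread that limma had fitted, which cannot show how it behaves on these arrays. Where 1 culture stayed near background on both arrays, the fold is a bound, from signals after normexp (offset 50), loess and Aquantile, against the lowest signal among probes well above background (or the dim probe's own, if higher). Ratios are compressed, since spike-in ratios had slopes of 0.85 and 0.842. All member probes kept their names in the RefSeq table of GRCm38.p6, 65 through an accession and 12 through a symbol. Every tested member, Foxn1, Ctnnb1 and the 3 highest and 3 lowest called genes of the pathway list were to be named. The members and lists were chosen with earlier results of these data known. The labels name TRIzol for RNA extraction and the methods a column kit. No column of other samples was present. The pathway list took the probe with the highest mean signal for each gene.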

Additional observations from a re-analysis of the deposited data

Results flagged for a closer look

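For 8 member probes, well above background in all 4 channels, the E14.5 and E15.5 arrays had opposite signs, each with 1 array per stage, so that the difference was not tested. The ratio on the E15.5 array minus that on the E14.5 array was 1.29 for Axin2, 0.94 for Fzd3, 1.39 for Fzd7 (2), 0.50 for Tcf7l2 (1) and 1.63 for Tcf7l2 (2). It was -1.05 for Fzd6, -1.46 for Tcf7 (1) and -0.52 for Wnt5b.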

How the results depend on the processing

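The 19 called probes kept their sign on each array alone and under each alternative that tested them. Alternatives that changed only the filter or the test used the same ratios, so their signs could not differ. A call on 2 arrays also hardly allows opposite signs. With both channels well above background, 12 of them were tested and all 12 kept their call, while Frzb, Fzd8 (2), Kremen2, Lef1 (1), Rspo1, Wnt2 and Wnt5a could not be tested. Normexp and loess, with or without Aquantile, gave 4 higher and 6 lower probes and a median of -0.073. Over all probes tested they called 8.48% higher and 7.18% lower, with a median of 0.016. Median centring gave 12 higher probes, 12 higher genes of the pathway list and a median of -0.10, with 21.4% of all probes tested called higher. With no replicate block, in which the channels of an array are not paired, 4 member probes, 3 member genes and 3 pathway genes were higher. Lower were 8 member probes, 8 member genes and 2 pathway genes, beside 9.4% of all probes called higher and 7.7% lower. With no filter on dim probes limma called 0 of 41168 probes, and the methods' t-test after adjustment called 0 probes, members and pathway genes included. At an unadjusted p under 0.05, 9 and 1 member probes were then higher and 15 and 6 lower, beside 12.4% and 6.95% of all probes higher and 13.5% and 8.00% lower. Without 1 array there was no test, and the median ranged from -0.38 to -0.30. The uncalled Fzd8 (1) turned to 0.058 after normexp and loess and to 0.14 after median centring, and Sost to 0.038 after the latter. The cause was not tested.

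The number of arrays and signal over background limit precision, and nothing says whether the cultures were separate beyond 2 experiments. Wnt1, printed in 10 spots near background, had an SD between spots of 0.36 and 0.50.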
